A study of Mus musculus with 13 samples.

Results

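The genes of the cytosolic ribosomal proteins were followed through 13 RNA sequencing libraries of astrocytes and microglia sorted from the spinal cord of young C57BL/6 mice that lacked Il33 or carried it. Members were the protein-coding genes whose symbol begins with Rpl or Rps followed by a digit, together with Rpsa, Rplp0, Rplp1 and Rplp2, and the kinases named Rps6k and annotated copies with the ending -ps were left out. The rule found 87 genes among the 39171 in the deposited table. They comprised 31 genes of the small subunit, 44 of the large subunit, 3 of the stalk of the large subunit, 8 paralogs and Rps19bp1, which encodes a nuclear protein that binds the product of Rps19. The libraries came from IL-33 KO astrocytes (n = 4), IL-33 WT astrocytes (n = 3), IL-33 KO microglia (n = 3) and IL-33 WT microglia (n = 3), with WT littermates as the controls. Astrocytes were sorted by green fluorescent protein driven by Aldh1l1, so the KO and WT astrocytes carried that reporter alike. Microglia were sorted by the surface protein CD11b, which other myeloid cells also carry. All microglia and most astrocytes were taken at postnatal day 12, and KO astrocyte library 2 and WT astrocyte library 3 at postnatal day 9. The knockout mice are of a published line, named without further detail, sex and the number of mice behind a library are not given, and the libraries of a group are described as biological replicates. Values are FPKM, fragments scaled to the length of the transcript and the depth of the library, which allow levels of different genes to be set side by side.

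Each ribosome holds a small subunit, which decodes the message, and a large subunit, which joins the amino acids. Their proteins are made in near-equal numbers, and the messages of most of them begin with a C followed by an unbroken run of pyrimidines, the terminal oligopyrimidine tract, through which mTOR complex signalling and the RNA-binding protein LARP1 control their translation. Some ribosomal proteins have paralogs that are used in particular tissues, such as Rpl3l in muscle and Rpl10l and Rpl39l in testis. Interleukin-33, the product of Il33, is a cytokine that spinal cord astrocytes release and that acts on microglia.

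The Il33 message lay between 0.424 and 2.28 FPKM in KO astrocytes, against 96.3 to 113 FPKM in WT astrocytes, and at or below 1.26 FPKM in every microglia library. Astrocyte markers summed to 9845 FPKM or more in the astrocyte libraries and to 156 FPKM or less in the microglia libraries. Microglia markers summed to 11264 FPKM or more in microglia and to 83.3 FPKM or less in astrocytes. Both labels therefore stood with their markers. The 10 oligodendrocyte markers were above 1 FPKM in every library and summed to 5827 to 8251 FPKM in KO astrocytes, 4619 to 6373 in WT astrocytes, 1627 to 2671 in KO microglia and 1083 to 1831 in WT microglia. The absolute depth is unknown. Depth relative to KO microglia library 2 was read from the most frequent FPKM ratio over genes that only part of the libraries detected. This put the astrocyte libraries at roughly 33.8% to 62.6% of the depth of KO microglia library 2. It put the other microglia libraries at roughly 75.2% to 85.6% of that depth. Each astrocyte value rests on only 5 to 14 genes at the most frequent ratio, against 16 to 52 in those microglia libraries, and is uncertain.

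The start of the message is the feature that this family is known for, so the sequence around the annotated start is shown for members of each kind met below. Sequences are 5′ to 3′ from RefSeq on GRCm38.p6, with 12 bases before the annotated start and 18 from it on, and capitals mark a C followed by at least 4 pyrimidines (C or T) that lies within 5 bases of that start.
Rpl27a: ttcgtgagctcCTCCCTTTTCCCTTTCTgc
Rpl12: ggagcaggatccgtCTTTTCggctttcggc
Rpl35a: gggcttgccttcCTCTTTCCgccatcttgg
Rps21: cgaggacccgccCTCCTgcccaatagtgct
Rplp2: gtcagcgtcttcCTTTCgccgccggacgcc
Rps27: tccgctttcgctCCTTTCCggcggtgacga
Rps27rt: acttatcccttgCTTTCCggcggtgacgac
Rps27l: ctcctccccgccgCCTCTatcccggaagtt
Rpl10: gttacagtggaagataggccgcctatataa
They lie at chr7:109519183-109519212 (plus strand), chr2:32961700-32961729 (plus), chr16:33056470-33056499 (plus), chr2:180257367-180257396 (plus), chr7:141447639-141447668 (plus), chr3:90213631-90213660 (minus), chr9:114982722-114982751 (minus), chr9:66946074-66946103 (plus) and chrX:74270804-74270833 (plus). No such run was found in the window of Rpl10. Where RefSeq gives several starts for a gene, as for Rpl35a, Rps21 and Rps27l, the start with the run is shown. Of the 66 members with a RefSeq window, 30 (45.5%) held the run within 5 bases of the start, against 21.2% of all 27025 genes with a window. At the annotated base itself the shares were 21.2% of the members and 3.01% of all genes. These are matches to an annotated start on the transcribed strand, not mapped starts in these cells.

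As a family, the cytosolic ribosomal protein genes took a smaller part of the transcriptome in astrocytes than in microglia, in both genotypes. Their FPKM made up 2.94%, 3.29%, 2.76% and 2.91% of the sum over nuclear protein-coding genes in the KO astrocytes and 2.59%, 2.57% and 3.57% in the WT astrocytes. In the microglia the share was 6.96%, 7.29% and 7.55% in the KO libraries and 8.45%, 8.20% and 6.67% in the WT libraries. Every astrocyte library thus lay below every microglia library, while KO and WT libraries overlapped within each cell type. The 77 genes of the mitochondrial ribosomal proteins, which build the separate ribosome inside mitochondria, stood the other way round on this scale, a direction that was not kept in WT when libraries were scaled to their whole FPKM sum (given with the gene lists). They made up 0.616% ± 0.0469 (SD, n = 4) in KO astrocytes, 0.577% ± 0.0395 (SD, n = 3) in WT astrocytes, 0.339% ± 0.00862 (SD, n = 3) in KO microglia and 0.351% ± 0.00603 (SD, n = 3) in WT microglia. The whole FPKM sum leans heavily on single genes. The highest gene of each library held 26.6% to 37.1% of it in KO astrocytes and 28.9% to 38.9% in WT astrocytes. In microglia that gene held 28.5% to 32.5% in KO and 11.6% to 28.2% in WT. In bulk libraries, fewer cells that use a gene and less RNA of it per cell cannot be told apart.

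**Figure D1:**
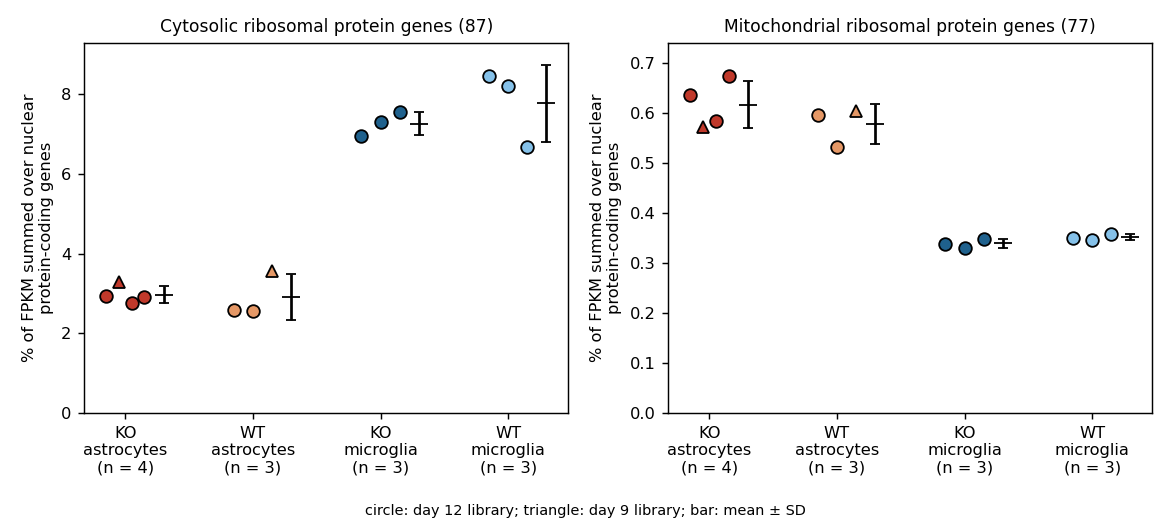
Percentage of the FPKM summed over nuclear protein-coding genes that fell to the 87 cytosolic (left) and the 77 mitochondrial (right) ribosomal protein genes, with 1 point per library (triangles for day 9) and mean ± SD beside each group. All 7 astrocyte libraries lie between 2.57% and 3.57% on the left, below all 6 microglia libraries at 6.67% to 8.45%, and on the right the astrocyte libraries lie above the microglia libraries, which in WT did not hold on the scale of the whole FPKM sum.

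The members spanned a wide range of levels, and that order was much alike in all groups. Of the members, 83 had a mean of at least 1 FPKM, the minimum for a test, in every comparison. Their median level was 126 FPKM in KO astrocytes, 123 in WT astrocytes, 246 in KO microglia and 248 in WT microglia. Across the 77 subunit and stalk genes that were tested, Spearman's rho between group means was 0.978 for KO and WT astrocytes, 0.974 for KO and WT microglia and 0.855 for WT astrocytes and WT microglia, a description over genes that share their libraries. Rpl41, which encodes the shortest protein of the ribosome, headed the order in astrocytes with 959.9 ± 196 FPKM in KO (SD, n = 4) and 909.7 ± 208 FPKM in WT (SD, n = 3). In microglia Rps29, a small zinc-binding protein of the small subunit, headed it with 1642 ± 96.9 FPKM in KO and 2019 ± 219.7 FPKM in WT (SD, n = 3 each). Rps27, Rpl32, Rpl13a and Rplp2 completed the 6 with the highest means over all libraries. The lowest tested members were Rpl7l1, a distant relative of Rpl7, and Rps19bp1. Replicates of a member differed more in the WT than in the KO groups, with a median coefficient of variation of 11.9% in KO astrocytes, 22.6% in WT astrocytes, 7.94% in KO microglia and 19.4% in WT microglia.

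The comparison of the cell types showed lower levels in astrocytes for most of the family. In the KO mice 65 of the 83 tested members were lower in astrocytes and 1 was higher, where 31.9% of all genes tested were lower and 25.1% higher (limma on log2(FPKM + 1) with age as a covariate, Benjamini-Hochberg adjusted p under 0.05). In the WT mice 65 were lower and 0 higher, against 29.1% and 24.5% of all genes. At an unadjusted p under 0.05 there were 66 lower and 2 higher in KO (34.4% and 27% of all genes), and 68 lower and 0 higher in WT (32.2% and 26.8%). The median log2 difference of the members, astrocytes minus microglia, was -1.05 in KO and -1.17 in WT, beside -0.24 and -0.21 over all genes tested. The small subunit had 27 of 31 genes lower in KO and 28 in WT, with medians of -1.23 and -1.43. The large subunit had 34 of 43 lower in KO and 33 in WT, with medians of -0.83 and -1.12. Of the members, 61 were lower in both genotypes, 4 in KO alone and 4 in WT alone. How many of all genes were lower in both was not counted, so this overlap is a description. Every astrocyte library lay below every microglia library for 70 members in KO and 64 in WT, where 34.2% and 30.1% of all genes did. For 58 members this held in both genotypes, again without a count over all genes. Every astrocyte library lay above every microglia library for 2 members in KO, Rps27l and Rps19bp1, and 0 in WT, against 28.1% and 25.7% of all genes. With the values of each library divided by the sum over nuclear protein-coding genes, 79 members were lower in KO and 76 in WT, where the share of all genes that were lower came to 37.7% and 33.7%. With quantile normalisation 54 were lower and 2 higher in KO, and 58 lower and 0 higher in WT, beside 25.1% and 23.2% of all genes lower. The oligodendrocyte markers differed between the cell types too, and so did the uncertain estimates of depth, as given above. The part of either in the result was not tested.

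**Figure D2:**
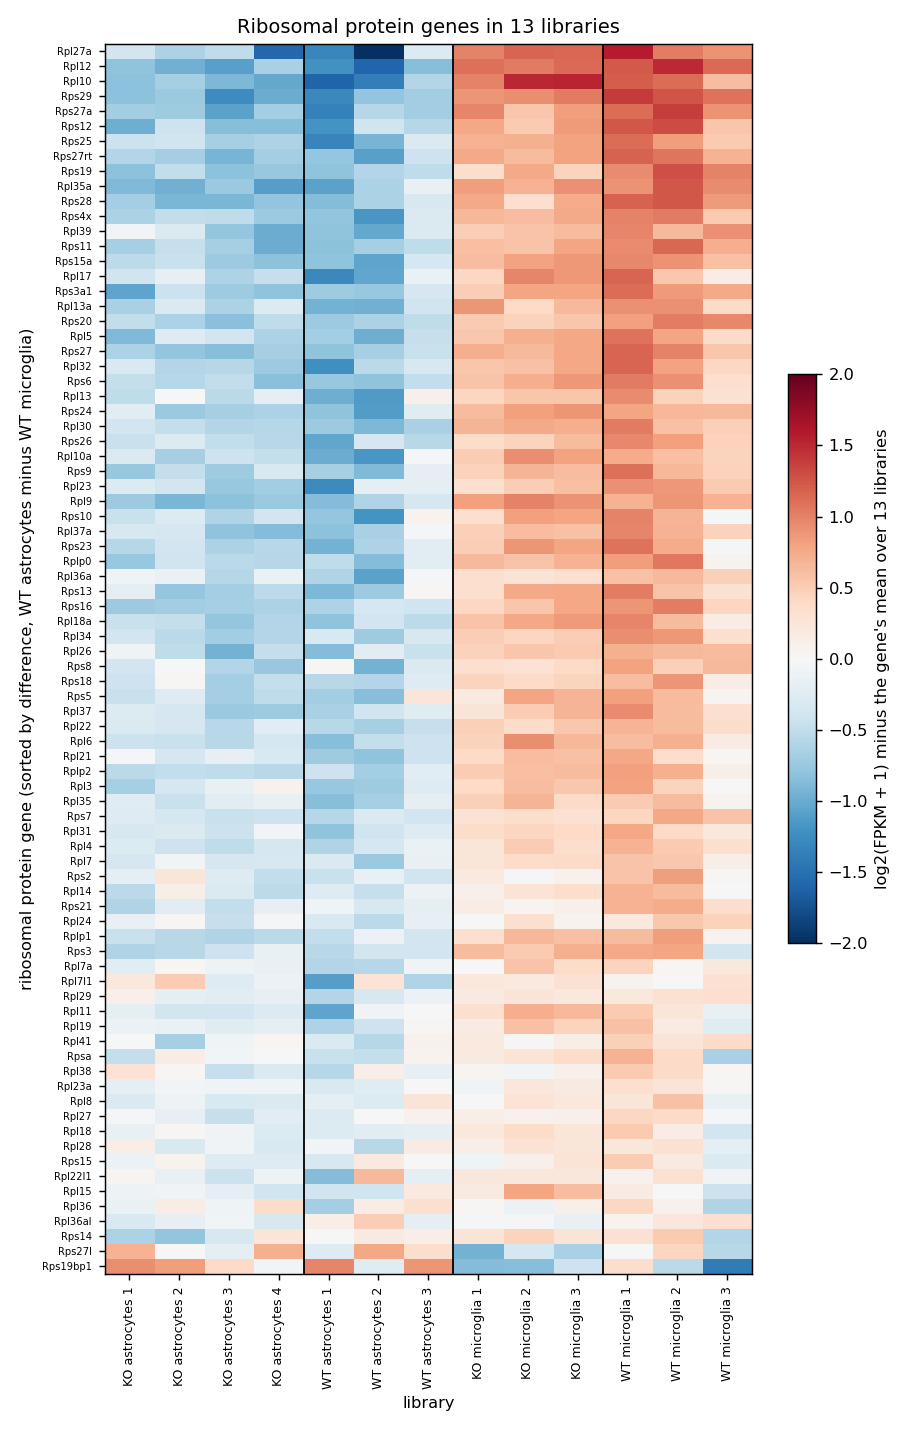
Level of 82 tested members (rows, sorted by the WT difference between cell types) in the 13 libraries (columns), as log2(FPKM + 1) minus the member's mean over all libraries, blue for below and red for above that mean. Blue fills most rows of the astrocyte columns and red most rows of the microglia columns, while Rps27l and Rps19bp1 at the bottom break the pattern, and Rps14 does so in the WT columns.

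The largest differences stood at members from different places of the ribosome. Rpl12 (chr2:32961559-32965345, GRCm38), a protein near the base of the stalk, had 66.0, 59.2, 54.2 and 73.7 FPKM in the KO astrocytes, against 250.5, 239 and 254 FPKM in the KO microglia. The WT astrocytes had 49.1, 37.9 and 63.5 FPKM, against 273, 326 and 255 FPKM in the WT microglia. The groups did not overlap, and the log2 difference was -2.01 ± 0.19 (SE) in KO and -2.57 ± 0.21 (SE) in WT (limma, adjusted p = 7.0e-06 and 2.3e-06). Rpl10 (chrX:74270812-74273135), a protein that joins the large subunit late in its assembly, had 85.3, 95.7, 80.6 and 74.5 FPKM in the KO astrocytes and 304, 435 and 439.9 FPKM in the KO microglia. In the WT mice Rpl10 had 49.5, 57.2 and 100.2 FPKM in astrocytes and 353, 329 and 232 FPKM in microglia. All astrocyte libraries were far below all microglia libraries, with a log2 difference of -2.34 ± 0.22 (SE) in KO and -2.36 ± 0.24 (SE) in WT (limma, adjusted p = 6.1e-06 and 1.2e-05). Rps29 (chr12:69157722-69159186) had 478, 507, 353 and 426 FPKM in the KO astrocytes and 1560.5, 1617 and 1749 FPKM in the KO microglia. The WT astrocytes had 345, 492 and 525 FPKM of it and the WT microglia 2235, 2028 and 1796 FPKM. The groups lay far apart, and the mean of Rps29 in astrocytes was 0.268 of that in microglia in KO and 0.225 of it in WT (limma, log2 difference -1.99 and -2.27, adjusted p = 3.3e-06 and 2.6e-06).

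Rpl27a, a large subunit protein close to the site of peptide bond formation, had the largest difference in WT but scattered more. It had 57.8, 48.0, 52.5 and 24.6 FPKM in the KO astrocytes against 150.1, 169 and 167 FPKM in the KO microglia, and 29.6, 16.3 and 62.0 FPKM in the WT astrocytes against 224, 153 and 140.0 FPKM in the WT microglia. Cell types did not overlap, and the log2 difference was -2.07 ± 0.37 (SE) in KO and -2.66 ± 0.40 (SE) in WT (limma, adjusted p = 7.4e-04 and 2.5e-04). Rps27a, made as a fusion of ubiquitin and a small subunit protein, was lower, with log2 differences of -1.62 in KO and -2.07 in WT. Among the next in size in WT were Rps12 (-1.58 in KO and -1.88 in WT) and Rps25 (-1.39 in KO and -1.84 in WT) of the small subunit. In KO, Rpl35a (-1.82) and Rpl9 (-1.73), both of the large subunit, were also among the 8 largest. Rpl12, Rps25, Rpl35a and Rps14 overlap genes on the other strand, with means over all libraries of 3.75 FPKM for Lrsam1 beside Rpl12, 10.8 for Trappc4 beside Rps25, 4.06 for Gm17106 beside Rpl35a and 18.1 for Ndst1 beside Rps14. Strand was not given for the counting, so reads of such genes may be shared.

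The stalk of the large subunit, which recruits the factors that drive elongation, was lower in astrocytes as a whole. Its anchor Rplp0 had 37.4, 48.3, 43.2 and 42.4 FPKM in the KO astrocytes against 99.8, 94.7 and 104 FPKM in the KO microglia, and 44.3, 34.4 and 54.5 FPKM in the WT astrocytes against 114, 133 and 66.8 FPKM in the WT microglia. Neither pair of groups overlapped. The log2 difference was -1.29 ± 0.23 (SE) in KO and -1.30 ± 0.25 (SE) in WT (limma, adjusted p = 7.2e-04 and 0.0013). Its partners Rplp1 (-1.05 in KO, -0.82 in WT) and Rplp2 (-1.15 and -1.05) were called in both genotypes as well, the WT call of Rplp1 being lost with quantile normalisation (-0.42, limma adjusted p = 0.156). Rpsa, the small subunit protein also known as the laminin receptor, did not pass in either genotype, with log2 differences of -0.47 in KO and -0.57 in WT (limma, adjusted p = 0.19 and 0.15). It passed in both after division by the nuclear protein-coding sum (limma, adjusted p = 0.0245 in KO and 0.0290 in WT) and after rescaling to the same FPKM sum (0.00259 and 0.000831). In KO it also passed with Xist as a covariate (limma, log2 difference -0.74, adjusted p = 0.0116), and in WT without WT microglia library 3 (-0.96, adjusted p = 0.00294).

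On the deposited scale with all libraries, a smaller set of members did not follow the family. Of the tested members, 13 were called in neither genotype, a count that was not made over all genes. Rps14, a small subunit protein next to the decoding site, had 106, 95.2, 132 and 194 FPKM in the KO astrocytes and 196, 225 and 198 FPKM in the KO microglia, a log2 difference of -0.63 ± 0.30 (SE) (limma, adjusted p = 0.093). Without KO astrocyte library 4, the highest of its group, that difference became -0.86 and passed the threshold (limma, adjusted p = 0.0309). In the WT mice Rps14 had 165, 186 and 180.0 FPKM in astrocytes and 203, 237 and 109 FPKM in microglia, where the groups overlapped, with a log2 difference of 0.11 ± 0.32 (SE) (limma, adjusted p = 0.8). The WT difference was -0.22 without WT microglia library 3 and -0.23 after division by the nuclear protein-coding sum, called under neither. After subtraction of the median member it was 1.25 and passed (limma, adjusted p = 0.00233). Rpl41 had 1068, 671, 1009 and 1092 FPKM in the KO astrocytes and 1222, 1090.4 and 1173 FPKM in the KO microglia, a log2 difference of -0.27 ± 0.21 (SE) (limma, adjusted p = 0.29). In WT the difference of Rpl41 was -0.59 ± 0.23 (SE), with 875, 721 and 1132 FPKM in astrocytes and 1481, 1278 and 1392 FPKM in microglia, which did not overlap and lay just outside the threshold (limma, adjusted p = 0.052). The WT difference passed, among others, without WT astrocyte library 3 (limma, adjusted p = 0.00165), without age as a covariate (0.0292) and with median-of-ratios scaling (0.0309). Rpl41 was lower in both genotypes after division by the nuclear protein-coding sum (limma, adjusted p = 0.0226 in KO and 0.00599 in WT). Subtracting the median member turned its differences positive (0.78 in KO and 0.55 in WT). Rps19bp1, which is not a part of the ribosome, was the only tested member besides Rps27l with a positive difference in both genotypes on the deposited scale, 1.12 ± 0.44 (SE) in KO and 0.91 ± 0.48 (SE) in WT (limma, adjusted p = 0.051 and 0.13), and with every library rescaled to the same FPKM sum the WT differences of both were negative (-0.12 for Rps19bp1 and -0.78 for Rps27l). The KO difference of Rps19bp1 lay near the threshold and passed without age as a covariate (limma, adjusted p = 0.0270), with quantile normalisation (0.0216), with a minimum mean of 5 FPKM (0.0466) and without KO astrocyte library 4 (0.0445). The WT difference passed without WT microglia library 1 (limma, adjusted p = 0.0279).

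**Figure D3:**
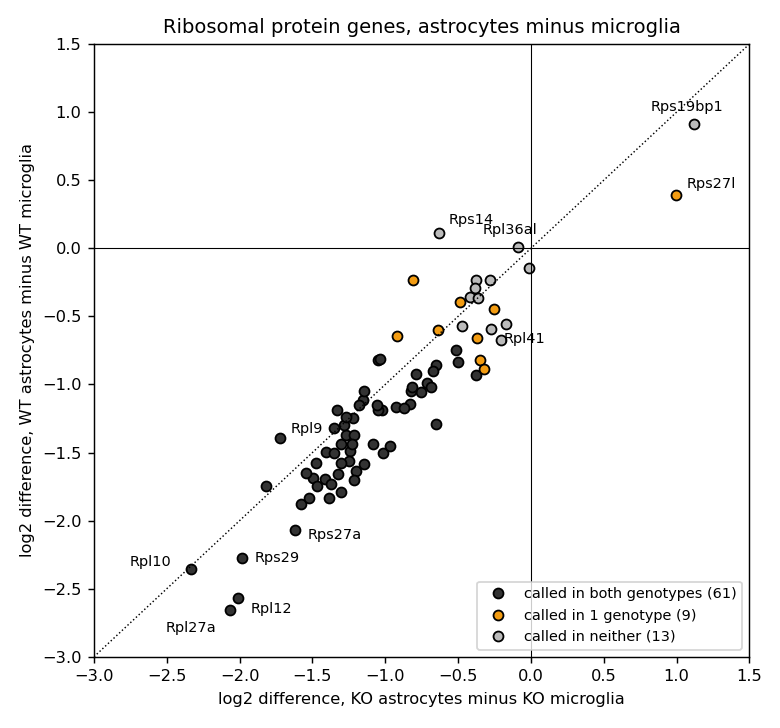
Log2 difference of each tested member between astrocytes and microglia in KO (horizontal axis) and in WT (vertical axis), with the dotted line marking equal differences and the shade marking calls at a limma adjusted p under 0.05. The 61 members called in both genotypes lie in the lower left, with Rpl10, Rps29, Rpl12 and Rpl27a at the far end and Rps27l and Rps19bp1 at the upper right.

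Across the subunit and stalk genes, the differences in the KO and WT mice ran together, with Pearson's r = 0.888 and Spearman's rho = 0.895 over 77 genes. The libraries of these contrasts are different ones, but the genes share each library's depth, so this is a description. Members with and without the pyrimidine run near the annotated start had medians close to each other. The 30 tested members with it had a median difference of -1.01 in KO and -1.17 in WT, and the 33 without it -1.06 in KO and -1.24 in WT.

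The balance between Rps27 and its paralog Rps27l was set apart between the cell types. Rps27 encodes a zinc-binding protein of the small subunit, Rps27l is its expressed paralog, known in human cells as a target of p53, and Rps27rt is a copy without introns. The coding sequences of GENCODE M21, read from the reference transcripts, begin as follows, with bases that differ from Rps27 in capitals, to show which of the genes short reads can tell apart.
Rps27: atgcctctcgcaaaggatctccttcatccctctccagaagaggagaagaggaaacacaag
Rps27rt: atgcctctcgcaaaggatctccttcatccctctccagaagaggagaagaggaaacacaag
Rps27l: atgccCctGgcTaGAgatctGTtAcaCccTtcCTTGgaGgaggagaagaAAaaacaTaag
Over the whole coding sequence Rps27rt was 100% identical to Rps27, and Rps27l 76.1%, with no identical run longer than 11 bases. Reads of Rps27 and Rps27rt can therefore be split only outside the coding part, and their separate values are uncertain, while reads of Rps27l can be told apart. Rps27l (chr9:66946086-66949516) had 98.7, 59.96, 52.4 and 99.9 FPKM in the KO astrocytes, against 30.8, 47.4 and 38.0 FPKM in the KO microglia. The WT astrocytes had 50.4, 104 and 77.2 FPKM of it, against 60.5, 81.6 and 40.9 FPKM in the WT microglia. The KO groups did not overlap and the WT groups did, and Rps27l was the only member called higher in astrocytes, in KO (limma, log2 difference 0.99 ± 0.35 (SE), adjusted p = 0.033) and not in WT (0.39 ± 0.39 (SE), adjusted p = 0.41). The KO call was lost without KO astrocyte library 1 or 4 or KO microglia library 1 or 3, with the replicate block, with Xist as a covariate, without the filter on low values and when values were divided by all or by nuclear protein-coding FPKM. Over these settings the adjusted p lay between 0.0566 and 0.711.

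The balance within each library does not depend on such scaling. Rps27 itself had 551, 496, 477 and 538 FPKM in the KO astrocytes and 490.0, 539 and 628 FPKM in the WT astrocytes, against 1427, 1343 and 1461 FPKM in the KO microglia and 1931, 1702 and 1260.2 FPKM in the WT microglia. Rps27l therefore made up 12.9% ± 2.96 (SD, n = 4) of the sum of Rps27l and Rps27 in KO astrocytes, against 2.69% ± 0.660 (SD, n = 3) in KO microglia. In the WT mice the share was 12.2% ± 3.61 in astrocytes, against 3.58% ± 0.861 in microglia (SD, n = 3 each). Each astrocyte library lay above each microglia library. An exact two-sided permutation test of the log2 ratio gave p = 0.0571 in KO and p = 0.1 in WT, the smallest values that groups of these sizes allow, so p under 0.05 could not be reached. Between genotypes the same exact permutation test gave p = 0.857 in astrocytes and p = 0.3 in microglia. These are 4 tests of a ratio chosen after its values were seen. Rps27rt made up between 20.5% and 27.7% of the sum of Rps27rt and Rps27 over the 13 libraries.

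**Figure D4:**
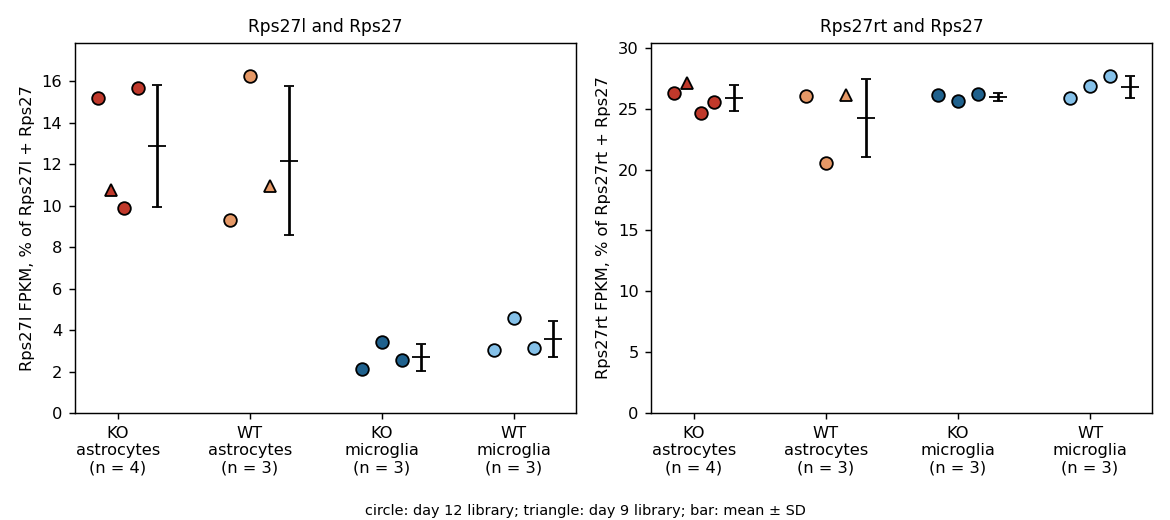
FPKM of Rps27l as a percentage of Rps27l plus Rps27 (left) and of Rps27rt as a percentage of Rps27rt plus Rps27 (right), with 1 point per library and mean ± SD beside each group. On the left all astrocyte libraries lie at 9.33% or more and all microglia libraries at 4.58% or less, and on the right the 4 groups overlap.

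The other paralogs held smaller or less certain shares. Rpl36al, 87.9% identical in its coding sequence to Rpl36a, did not differ detectably between cell types (limma, log2 difference -0.09 in KO and 0.01 in WT, adjusted p = 0.69 and 0.99), while Rpl36a was lower in astrocytes, with log2 differences of -0.65 in KO and -1.29 in WT. The KO call of Rpl36a was lost without age as a covariate (-0.54, limma adjusted p = 0.0542), with quantile normalisation (-0.42, adjusted p = 0.127) and without KO astrocyte library 3 (-0.56, adjusted p = 0.0523). Rpl36al made up 35.9% ± 5.64 of the pair in KO astrocytes (SD, n = 4) and 47.7% ± 14.5 in WT astrocytes (SD, n = 3). In microglia it made up 29.6% ± 1.19 in KO and 29.95% ± 2.72 in WT (SD, n = 3 each). Rpl22l1 held 11.6% to 13.4% of its sum with Rpl22 in KO astrocytes and 8.95% to 9.96% in KO microglia, and 8.70% to 23.5% in WT astrocytes and 7.46% to 8.92% in WT microglia. Neither Rpl22l1 nor Rpl7l1 was called between cell types on the deposited scale with all libraries. Without WT astrocyte library 2 both were lower in WT astrocytes, by a log2 difference of -0.77 for Rpl22l1 and -1.25 for Rpl7l1 (limma, adjusted p = 0.0270 and 0.00164), and both were lower in both genotypes after rescaling to the same FPKM sum. Rpl3l, the paralog used in muscle, was listed at 0.210, 0.6, 0.310 and 0.931 FPKM in the KO astrocytes and at 0 in all WT astrocytes, too low for a test. Rpl39l, Rpl10l and Gm2000, a gene that the table names Rpl35, were also below the minimum for a test.

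Lists of related genes placed the family beside other parts of the translation machinery. Of the 77 mitochondrial ribosomal protein genes, 45 were higher and 1 lower in KO astrocytes, and 42 were higher and 0 lower in WT astrocytes, with medians of 1.09 and 1.00, against medians of -0.24 and -0.21 over all genes. Among all genes tested 25.1% were higher and 31.9% lower in KO, and 24.5% higher and 29.1% lower in WT. The counts of the mitochondrial genes depended on the scaling, and in WT so did the sign of their median. After each library was rescaled to the same FPKM sum, 18 were higher and 3 lower in KO and 8 higher and 8 lower in WT, where 15% of all genes were higher and 45.2% lower in KO, and 12.2% higher and 46.2% lower in WT. Their medians were then 0.27 and -0.08, beside -0.80 and -0.97 over all genes. Under that rescaling the cytosolic members had medians of -1.89 in KO and -2.35 in WT, still below the mitochondrial ones. Mrps6, of the small mitochondrial subunit, was higher in astrocytes on the deposited scale, by 3.50 ± 0.34 (SE) in KO and 3.14 ± 0.37 (SE) in WT (limma, adjusted p = 9.1e-06 and 4.4e-05). Mrpl4 (1.78 in KO) and Mrpl9 (2.14 in WT), of the large mitochondrial subunit, were higher as well.

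Other genes whose messages are known to begin with an oligopyrimidine tract moved less uniformly. Of 21 such genes, 10 were lower and 2 higher in KO astrocytes, and 9 lower and 1 higher in WT, with a median of -0.33 in both. Rack1, which encodes a scaffold protein bound to the small subunit, was lower, with log2 differences of -1.498 in KO and -2.02 in WT, as was Pabpc1, the poly(A)-binding protein, with -1.74 and -1.75. Fau, a small subunit protein made as a ubiquitin-like fusion, was lower too, with -1.53 in KO and -1.46 in WT. Among 40 genes of ribosome assembly and RNA polymerase I, 15 were lower and 5 higher in KO astrocytes, and 8 lower and 7 higher in WT, with medians of -0.59 and -0.37 beside -0.24 and -0.21 over all genes. Of all genes tested 31.9% were lower and 25.1% higher in KO, and 29.1% lower and 24.5% higher in WT. Taf1d, of the polymerase I selectivity factor, was lower, with -3.43 in KO and -3.59 in WT. Tsr1, a small subunit assembly factor, was higher by 1.79 in KO, and Nop56, a core protein of the particles that methylate ribosomal RNA, was lower in WT, with -1.29. Among 20 regulators, 7 were lower and 6 higher in each genotype, near the shares among all genes. Myc (-2.78 in KO, -3.33 in WT) and the mTOR complex subunit Rptor (-1.42 and -1.72) had the smallest p of these, both lower in astrocytes. Dividing by the summed nuclear protein-coding FPKM changed these regulator counts to 9 lower and 1 higher in WT, where 33.7% of all genes were lower and 20.5% higher.

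No member passed the threshold between KO and WT microglia. Of the 83 tested members, 0 were called higher and 0 lower in KO microglia, where 0.0566% of all genes were higher and 0.0252% lower (limma, adjusted p under 0.05). At an unadjusted p under 0.05 there were 1 higher and 3 lower, against 4.29% and 3.67% of all genes. The authors' deposited table of genotype differences in microglia lists 483 genes, and 0 of them are members. The median log2 difference, KO minus WT, was -0.19 for the small subunit, -0.06 for the large subunit and 0.02 for the stalk, beside 0.02 over all genes tested. In 14 members every KO library lay below every WT library, and in 1 above, where 7.48% and 8.41% of all genes did. The median over all members was -0.09, and positive with quantile normalisation (0.05), with Xist as a covariate (0.19) or without WT microglia library 1 (0.0031), while without WT microglia library 3 it was -0.25. The oligodendrocyte markers had a median difference of 0.79 in the same comparison, with 10 of 10 positive, and the 6 markers of neutrophils and monocytes summed to 53.8 to 103 FPKM in KO and 129 to 237 FPKM in WT microglia. The part of either in the values of the members was not tested.

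The members with the smallest p in microglia were small subunit genes on the lower side. Rps20 had 420.3, 406 and 433 FPKM in the KO microglia and 522, 596 and 572 FPKM in the WT microglia, with no overlap and a log2 difference of -0.42 ± 0.13 (SE) (limma, adjusted p = 0.56). Rps21 had 443, 413 and 430.1 FPKM in KO and 644, 668 and 510.1 FPKM in WT (-0.49 ± 0.16 (SE), adjusted p = 0.56). Rps19, whose human counterpart is mutated in Diamond-Blackfan anaemia, had 244, 323 and 259 FPKM in KO and 366, 468 and 380.0 FPKM in WT (-0.56 ± 0.18 (SE), adjusted p = 0.56). The members with the smallest p on the other side were genes of the large subunit. Rpl15 had 65.6, 101 and 89.2 FPKM in the KO microglia and 64.9, 57.0 and 42.6 FPKM in the WT microglia, a log2 difference of 0.62 ± 0.24 (SE) (limma, adjusted p = 0.6). Rpl11 (0.36) and Rpl10 (0.37) had positive differences that did not pass either (limma, adjusted p = 0.71 and 0.72).

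In astrocytes the family gave no call between genotypes either. In KO astrocytes 0 members were called higher and 0 lower, beside 0.00746% and 0.0149% of all genes (limma with age as a covariate, adjusted p under 0.05), and 1 was higher and 0 lower at an unadjusted p under 0.05, where 2.13% and 2.05% of all genes were. Every KO library lay above every WT library for 2 members, Rpl21 and Rpl30, and below for 1, Rps16, against 2.32% and 2.36% of all genes. The authors' deposited table for astrocytes lists 10 genes, none of which is a member. The median difference was 0.02 for the small subunit, 0.17 for the large subunit and -0.07 for the stalk. Rpl21, a large subunit protein, had the smallest p, with 171, 136, 154 and 139.6 FPKM in the KO astrocytes and 105, 98.1 and 129 FPKM in the WT astrocytes, no overlap and a log2 difference of 0.44 ± 0.17 (SE) (limma, adjusted p = 0.92). Rps14 had the smallest p on the lower side, with -0.50 ± 0.25 (SE) (limma, adjusted p = 0.92). The difference between the genotype effects, astrocytes minus microglia, was called for 0 members in the higher and 0 in the lower direction, beside 0.0554% and 0.0861% of all genes, and 3 members reached an unadjusted p under 0.05, all higher, against 2.69% higher and 3.92% lower among all genes. They included Rpl36a (0.63) and Rps20 (0.43). The median of the interaction over the members was 0.21, beside -0.01 over all genes. It was 0.023 with Xist as a covariate, 0.10 with quantile normalisation, 0.09 without WT microglia library 1, 0.36 without WT microglia library 3, and 0.53 after rescaling to the same FPKM sum, where all genes had 0.19. A p that misses the threshold does not show that KO and WT cells had equal levels.

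**Figure D5:**
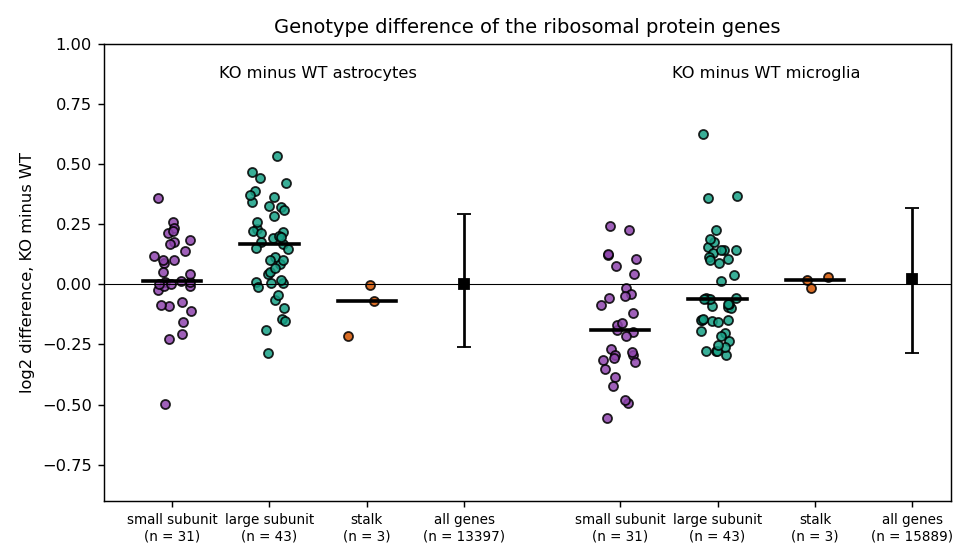
Log2 difference between KO and WT of each small subunit, large subunit and stalk gene in astrocytes (left) and microglia (right), with thick bars for the medians and a square with whiskers for the median and quartiles over all genes tested. The medians of the subunits lie between -0.19 and 0.17, inside the quartiles of all genes, and no member passed the threshold.

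Age within the astrocytes was examined after the values had been seen. Day 12 against day 9 libraries gave 0 members higher and 0 lower in the fit that also held genotype, beside 0.0523% and 0.0448% of all genes (limma, adjusted p under 0.05), and 0 were higher and 7 lower at an unadjusted p under 0.05, where 4.9% and 3.72% of all genes were. The differences of 76 of 83 members were negative, with a median of -0.24 beside 0.02 over all genes. Rpl13 had the smallest p, with 131, 128 and 163 FPKM in the day 12 KO libraries and 187 in the day 9 KO library, and with 94.1 and 85.1 FPKM in the day 12 WT libraries and 199.9 in the day 9 WT library (limma, log2 difference -0.76 ± 0.22 (SE), adjusted p = 0.37). Both day 9 libraries were above the day 12 libraries of their genotype, and each genotype held a single day 9 library, so age cannot be told apart from those libraries. The microglia markers, which do not belong to sorted astrocytes, summed to 53.3 to 83.3 FPKM in the day 12 libraries and to 9.09 and 21.8 FPKM in the day 9 libraries, and their part was not tested.

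Annotated copies with the ending -ps held little of the listed signal, and copies under other symbols were not summed. The table holds 239 annotated copies with the ending -ps, of which 38 were listed at 0 in every library and 25 had a mean of at least 1 FPKM. Together they reached 0.623% of the members' summed FPKM in KO astrocytes, 0.663% in WT astrocytes, 0.814% in KO microglia and 0.804% in WT microglia. No source used here says how reads that match both a member and a copy were assigned. Between the annotated start and end of members also lie 59 small nucleolar RNA genes, guides for the modification of ribosomal RNA. The table lists them as genes of their own, and Snora78, within Rps2, is on the other strand.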

How the data were processed

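Total RNA of 13 sorted populations was amplified and sequenced (NuGEN RNA-Seq V2, per the labels' protocols). The authors deposited 1 table of FPKM, and 2 tables of genotype differences that hold log2 fold changes of WT over KO, a test score, p-values and mean normalised signal, per the file headers. The submitters' processing notes list alignment tools (TopHat2 2.0.11 and Bowtie2 2.2.3), counting and quantification tools (HTSeq 0.6.1p1, Cufflinks and Cuffnorm), DESeq2, FastQC and the build GRCm38. No source used here states their settings, the strand or the annotation. The FPKM sums differed between libraries and their absolute depth cannot be recovered from FPKM, so no count model was run and the precision of low values is unknown.

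Symbols and gene types came from GENCODE M21 (GRCm38), which held 37605 of the 39171 identifiers. The deposited table names both Rps27 and Rps27rt as Rps27rt, and the annotation separates them by identifier. Genes with a mean of at least 1 FPKM over the fitted libraries were tested on log2(FPKM + 1) with limma (version 3.58.1, R 4.3.3), moderating variances with a trend on the mean level, a script that was also tested on simulated data. Fold changes on this scale understate those of low genes. Microglia were fitted alone, astrocytes alone with age as a covariate, and the interaction and cell type contrasts in a single fit of all libraries with age. P-values were adjusted over all genes tested by the Benjamini-Hochberg method, and measure only the spread between these libraries. Samples were not treated as paired by replicate number in the main fits. The correlation of deviations of same-numbered libraries never exceeded 0.0277. Differently numbered libraries were not compared, so shared mice or litters cannot be judged from it.

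Named members were those with the largest differences past the threshold (up to 8 per comparison and direction, or the 3 with the smallest p), the 6 highest and 6 lowest in level, the paralogs with their parents, the stalk genes and Rpsa, and for other lists the 2 genes with the smallest p. Fau and the members Rps14 and Rps19bp1 among the uncalled were named after their values were seen. Single results of 2 genes are not reported here. The members and lists were chosen with earlier results of these data known. Alternatives covered the pseudocount, the filter, the scaling, Xist as a covariate because sex is not stated, age, the replicate block and each library left out.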

Additional observations from a re-analysis of the deposited data

Results flagged for a closer look

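In 6 of 53 quantities examined in the 4 KO astrocyte libraries, 1 library lay outside the others by Dixon's criterion. Chance meets it about 1 time in 20 for a single quantity. The quantities share their libraries, and Rpl39l entered both by its level and by its share, so the count cannot be weighed against that rate. Library 3 was low for Rpl36a, with 114.4 FPKM against 155.4 to 161.7 in the others, and for Rps27a, with 34.85 FPKM against 45.26 to 46.4. Library 2, the day 9 library of the group, was high for Rpl7, with 105.3 FPKM against 86.05 to 87.66 in the others, and for Rps19, with 135.0 FPKM against 107.3 to 111.7. Library 2 also held the only reads of Rpl39l in the group, at 0.2495 FPKM or 0.1355% of its sum with Rpl39, and the others were listed at 0. No member moved in opposite directions with genotype in all libraries of the 2 cell types.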

How the results depend on the processing

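The counts of members called between KO and WT in either cell type, for the interaction and for age were 0 under all alternatives run. Between astrocytes and microglia, leaving out each library gave 59 to 66 calls and medians of -1.13 to -1.002 in KO. In WT it gave 63 to 71 calls and medians of -1.33 to -1.08. Of all genes, 22% to 24.3% were then higher and 27.1% to 31% lower in KO. In WT these shares were 22.6% to 24% and 26.2% to 28.1%. The other alternatives, apart from subtracting the median member, gave 56 to 81 calls in KO and 58 to 81 in WT. Under them 13.6% to 31.7% of all genes were higher and 20.6% to 45.2% lower in KO. In WT 12.2% to 30.4% were higher and 19.4% to 46.2% lower. Rescaling every library to the same FPKM sum moved the median of the members to -1.89 in KO and -2.35 in WT (all genes -0.80 and -0.97), to 0.39 between KO and WT astrocytes, to 0.53 for the interaction and to -0.77 for age. Quantile normalisation gave -0.85 in KO and -0.90 in WT, and dividing by the nuclear protein-coding sum, added after seeing the data, gave -1.42 and -1.51. With Xist as a covariate the median was 0.19 between KO and WT microglia and 0.023 for the interaction; the cause was not tested. Subtracting each library's median member by construction removes what the members share. It left 29 calls in KO (18 higher, 11 lower) and 31 in WT (15 higher, 16 lower). Of all genes, 43.9% were then higher and 14.7% lower in KO, and 44.5% higher and 12.9% lower in WT. This subtraction gave medians of the members of 0.0047 in KO, -0.036 in WT and 0.063 for age. Under it, among the members named and called with or without it, the sign of the log2 difference turned in KO for Rpl15 (0.24), Rpl11 (0.13), Rps21 (0.55), Rpl21 (0.30), Rpl7a (0.54), Rpl36al (0.97), Rpl36a (0.40), Rpl13 (0.035), Rpl41 (0.78), Rpl22 (0.22), Rpl7 (0.38), Rpl3 (0.23) and Rplp1 (0.00296), and in WT for Rpl15 (0.91), Rps21 (0.30), Rpl21 (0.084), Rpl7a (0.39), Rplp2 (0.089), Rpl22l1 (0.91), Rpl7 (0.23), Rpl3 (0.0899) and Rplp1 (0.32). The sign also turned for named members called neither way, in KO for Rps14 (0.42), Rpl7l1 (0.85), Rpl22l1 (0.68) and Rpsa (0.58), and in WT for Rpl11 (0.49), Rpl41 (0.55), Rpl7l1 (0.47) and Rpsa (0.57). Rescaling to the same sum turned Rps14 (-1.08) and Rpl36al (-1.17), and without a call either way Rps27l (-0.78) and Rps19bp1 (-0.12), all in WT. Of 4878 values of single members under all alternatives, 4754 stayed on their side of the threshold with no turn of a called value. Among these, 267 that were called neither way turned sign. All values of the genotype, interaction and age comparisons stayed, since no member was called there. In the cell type comparisons 729 of 800 values stayed in KO and 707 of 760 in WT. The replicate block, whose numbers are not known to pair samples, left 58 calls in KO and 64 in WT, with medians of -1.04 and -1.20, and medians of -0.09 between KO and WT microglia, 0.08 between KO and WT astrocytes, 0.22 for the interaction and -0.21 for age. Among the members named, the block lost the KO calls of Rps27l, Rpl7a, Rpl11 and Rpl15 and gained that of Rpl41 in WT. Depth is unknown, so members near 1 FPKM carry an error that cannot be given.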
